A study of Gallus gallus with 8 samples.

Results

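The regions described here are the CUT&Tag peaks of chicken liver that lie within 500 kb of either end of an autosome. A peak was counted as terminal when its midpoint lay within 500 kb of position 0, or within 500 kb of the highest peak end listed on that chromosome over all libraries. Chromosomes 1 to 15 and 17 to 28 were used, 27 autosomes with 54 terminal windows. Of the 69159 peaks in the 8 lists, 1835 were terminal, 60664 lay in the interior of the same autosomes, and 6660 lay on other chromosomes or scaffolds. The members were chosen by position alone, so their number, width, score and recurrence were not used to choose them.

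The study compared livers of chickens (Gallus gallus) kept at normal temperature with livers of chickens kept at high temperature, with 4 libraries each, and its title names Nrf2-regulated genes and heat stress. The temperatures, the length of exposure, and the birds' breed, age and sex are not given in the sources used here. CUT&Tag directs the transposase Tn5, through protein A and an antibody, to a protein on chromatin and sequences the DNA that is cut there. Which primary antibody was used is not given in these sources, and Nrf2 is a transcription factor that switches on antioxidant genes. Samples carry the numbers 1 to 4 within a temperature, but no label says that each came from its own bird, so a p-value covers the spread among these samples, which may be technical. The label liver could not be compared with marker genes, because the lists give positions and no genes.

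The chicken karyotype holds a few large macrochromosomes and many small microchromosomes, which are denser in genes and richer in G and C. Chromosome ends carry the telomere repeat, and the sequence next to it is often repetitive and hard to assemble. A window of fixed length takes in a larger part of a microchromosome than of a macrochromosome. Positions are in galGal6, the build named in the submitters' processing notes, and are counted from 1. Genes and sequences at these positions were not analysed here.

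The lists held 7550 to 10599 peaks, and the lowest score in each ran from 30.0 to 120.0, so that numbers of peaks are not on a common scale. The read depth behind the lists is unknown. High temperature 1 stands apart by its wide peaks, and it shares many peaks of identical coordinates with high temperature 3. The values of high temperature 1 are therefore given apart. Many comparisons are also given without it, and the main ones on overlap between libraries also without high temperature 3. At the chromosome ends, 14 peaks had identical coordinates in these lists. That was 4.09% of the terminal and 13.1% of the interior peaks of high temperature 1, and 7.82% and 11.4% in high temperature 3.

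Counted in the rule's windows, chromosome ends did not hold more peaks than the rest of their chromosomes in 6 of the 8 libraries. These windows include 5 start windows that were empty in all libraries. The peaks that the ends held were far more often wide than those in the interior of the same autosomes. In 7 libraries the terminal windows held 2.41% to 2.95% of all autosomal peaks, and in high temperature 1 they held 5.11%. In the 7 libraries other than high temperature 1, 100 of the 132 wide terminal peaks lay in regions held by at least 4 libraries, and the start window of chromosome 14 held 41 of them. In high temperature 1, 24 of 132 lay in such regions. Of the terminal regions, 8 were listed in all 8 libraries. No measure of the chromosome ends passed the threshold between temperatures after adjustment. A single measure could not pass alone, because the smallest exact permutation p of 0.0286 was adjusted over 8 measures.

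Terminal peaks numbered 217, 200, 245 and 247 in the normal temperature libraries, in the order 1 to 4. They numbered 342, 197, 179 and 208 in the high temperature libraries in the same order. High temperature 1 lay above all others, and the remaining 3 high temperature libraries lay within or below the normal range. As a share of autosomal peaks, terminal peaks made up 2.93% (95% exact Clopper-Pearson interval 2.55% to 3.34%), 2.49% (2.16% to 2.86%), 2.68% (2.36% to 3.04%) and 2.51% (2.21% to 2.83%) at normal temperature 1 to 4. The share was 5.11% (4.59% to 5.66%), 2.86% (2.48% to 3.28%), 2.41% (2.07% to 2.78%) and 2.95% (2.57% to 3.37%) at high temperature 1 to 4. These intervals cover counting error only. The interval of high temperature 1 overlapped none of the other 7, whose intervals all overlapped one another.

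**Figure D1:**
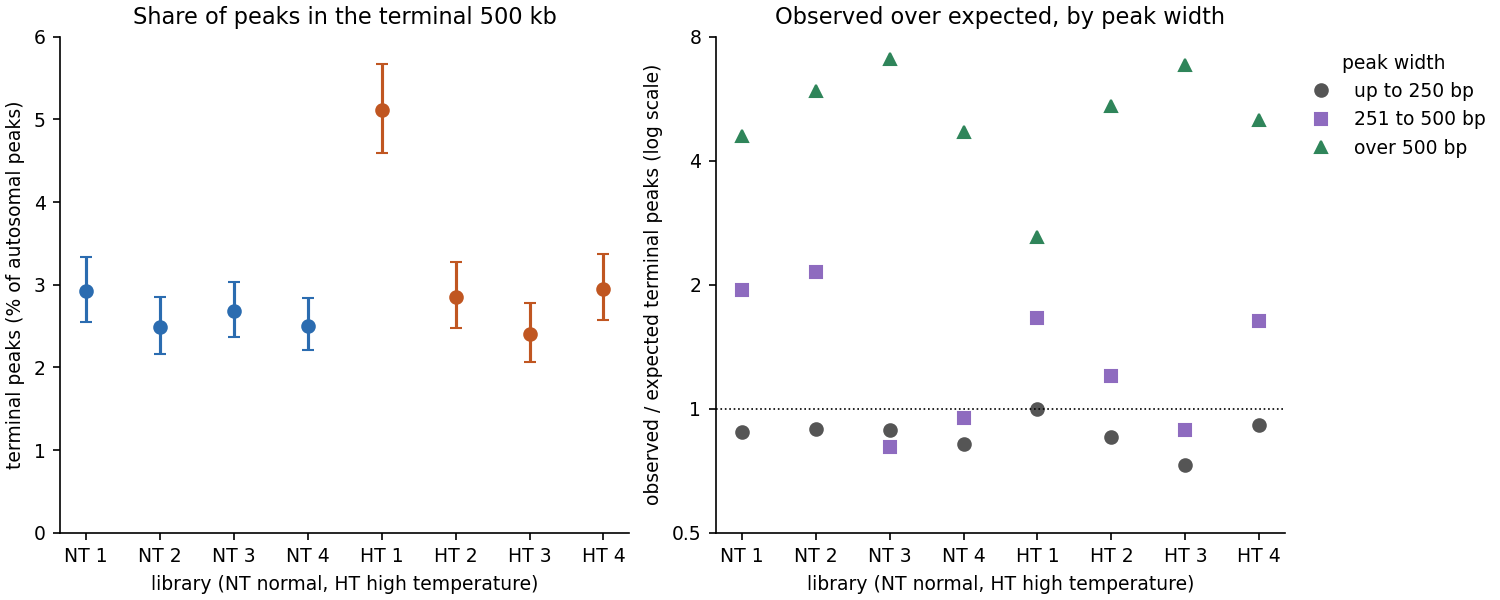
Left, terminal peaks as a percentage of the autosomal peaks of each library, with the 95% exact interval of each share. Right, terminal peaks observed over expected from each chromosome's own number of peaks, on a log scale, for 3 classes of peak width. The share was 5.11% in high temperature 1 and 2.41% to 2.95% in the others, and peaks over 500 bp lay above 1 in all 8 libraries, from 2.61 to 7.05.

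To set the ends against the rest of the same chromosomes, the expected number of terminal peaks was taken as each chromosome's own number of peaks times the part of its length that is terminal, summed over the 27 autosomes. Observed over expected was 0.963, 0.946, 0.95 and 0.891 at normal temperature 1 to 4 and 1.64, 0.968, 0.815 and 1.02 at high temperature 1 to 4. The ratio was below 1 in 6 libraries and above 1 in high temperature 1 and 4. Its log2 averaged 0.0036 ± 0.30 (SD, n = 8, two-sided exact sign-flip permutation p = 1.0), so no departure from 1 was detected over the 8 libraries. Without high temperature 1 the mean was -0.10 (exact permutation p = 0.0312, adjusted p = 0.0547 over 7 measures). The expected number includes the full length of 5 start windows that held 0 peaks in all libraries. Windows were also counted from the first listed peak of each chromosome, an alternative added after the data had been seen. The mean over the 8 libraries was then 0.11 (exact permutation p = 0.305, adjusted p = 0.533). The limit of the windows did not coincide with a step in all peaks, since 367 peaks lay 400 to 500 kb from an end and 366 lay 500 to 600 kb from it. The peak nearest to the limit on the inside was one of 200 bp on chromosome 10 in high temperature 4, with its midpoint 504 bp within it. On the outside it was one of 200 bp on chromosome 26 in normal temperature 1, 944 bp beyond it.

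Width set the terminal peaks apart from those in the interior of the same autosomes. Other chromosomes and scaffolds were not part of this comparison. In 7 libraries the median terminal peak was 200 bp wide, and in high temperature 1 it was 424 bp. Peaks over 500 bp made up 8.29%, 5.0%, 7.76% and 8.91% of terminal peaks at normal temperature 1 to 4 and 38.6%, 12.2%, 11.2% and 9.13% at high temperature 1 to 4. In the interior of the same autosomes they made up 0.514%, 0.217%, 0.383% and 0.906% at normal and 21.6%, 0.642%, 0.455% and 0.789% at high temperature. Terminal peaks were the more often wide in each of the 8 libraries, by 9.44 ± 3.68 percentage points on average (SD, n = 8, two-sided exact sign-flip permutation p = 0.00781, the smallest that 8 libraries allow, and adjusted p = 0.0182 over 7 measures). Without high temperature 1 the difference was 8.36 percentage points (exact permutation p = 0.0156, adjusted p = 0.0365). In these 7 libraries, 100 of the 132 wide terminal peaks lay in regions held by at least 4 libraries. The values are therefore not independent, though the test takes them as such. This limit applies to every p-value on wide terminal peaks.

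By number, 264 of the 2365 peaks over 500 bp in the whole series were terminal. In the 7 libraries other than high temperature 1 they were 132 of 581. Of the rest, 305 lay in the interior of the autosomes, and the others lay on other chromosomes and scaffolds. From the wide autosomal peaks alone, 24.1 terminal ones were expected, a ratio of 5.47. By library this ratio ran from 4.60 to 7.05, and in high temperature 1 it was 2.61, with 132 observed and 50.6 expected. Peaks up to 250 bp wide went the other way, with 1378 observed and 1602 expected, and a ratio of 0.729 to 0.998. When these narrow peaks alone were counted, the log2 of observed over expected averaged -0.20 over the 8 libraries (two-sided exact sign-flip permutation p = 0.00781, adjusted p = 0.0273). With the windows also counted from the first listed peak of each chromosome, an alternative added after the data had been seen, the mean was -0.09 and did not pass (exact permutation p = 0.0391, adjusted p = 0.137). Peaks over 250 and up to 500 bp lay on both sides of 1, from 0.809 to 2.14.

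The wide peaks also thinned out with distance from the end. In the 7 libraries together, 33, 36, 22, 26 and 15 wide peaks lay in the successive 100 kb bins up to 500 kb. The next 5 bins held 5, 3, 0, 4 and 2, and no bin between 1 and 2 Mb held more than 10. These bins count a shared region in each library that holds it. Of the 132 wide terminal peaks, 100 lay in regions held by at least 4 libraries, and 41 in the start window of chromosome 14. A decline at each single end was not tested. High temperature 1 held 102 of its 342 terminal peaks in the outermost 100 kb, or 29.8% (95% exact interval 25.0% to 35.0%). In the other libraries that share ran from 16.2% to 25.1%. All widths together, in the 7 other libraries the outermost 100 kb held 302 peaks and the next 100 kb held 249, against 305 to 338 in the 100 kb bins from 200 kb to 1 Mb. With high temperature 1 included the outermost bin held 404, above the 356 to 384 of those bins, so the direction there rests on that library. Distances run from position 0 at chromosome starts but from the last listed peak at the far ends. The first listed peak began at 101225 on chromosome 14 and beyond 500 kb on chromosomes 6, 9, 10, 13 and 17. The part of this in the counts of the outer bins was not tested.

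**Figure D2:**
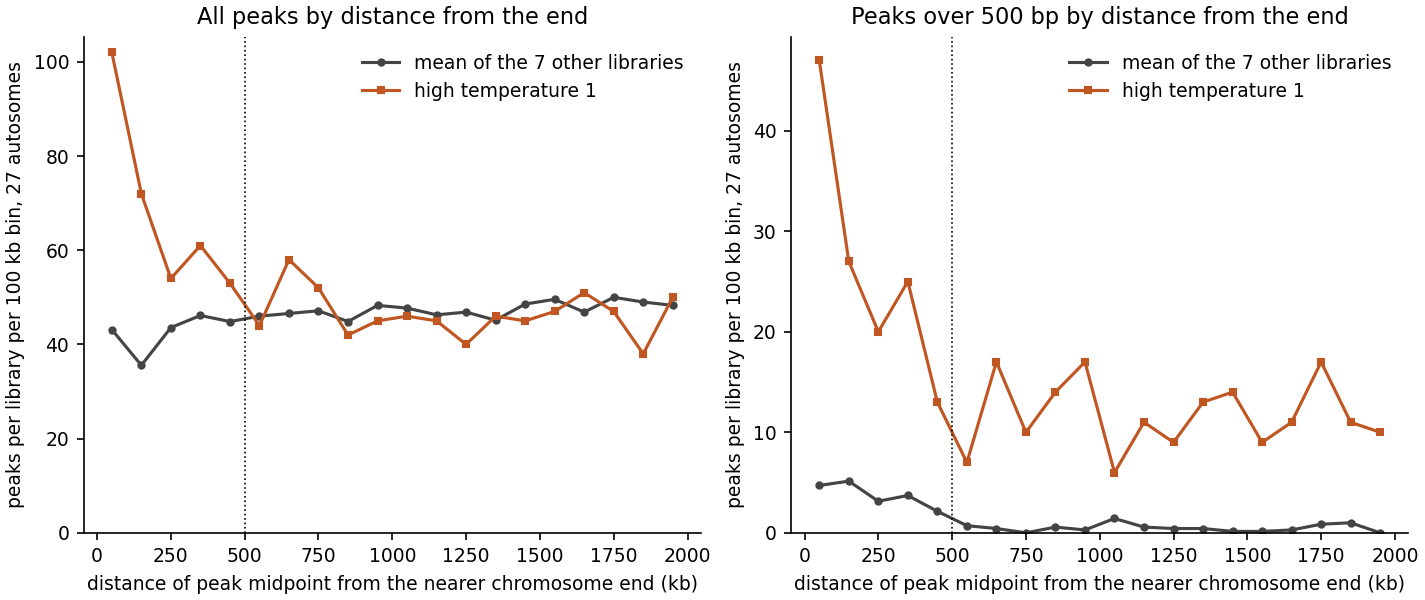
Peaks per library in 100 kb bins of distance from the nearer chromosome end, summed over 27 autosomes, for high temperature 1 and for the mean of the 7 other libraries, with all peaks on the left and peaks over 500 bp on the right; the dotted line marks 500 kb. High temperature 1 held 102 peaks in the outermost bin, and the wide peaks of the other libraries summed to 15 to 36 per bin inside the line and to at most 10 beyond it.

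Starts and ends of chromosomes differed in number. The 27 start windows held 804 peaks and the 27 end windows 1031. Start windows held 43.3%, 42.5%, 46.5% and 44.9% of terminal peaks at normal temperature 1 to 4 and 42.1%, 42.6%, 43.0% and 45.7% at high temperature 1 to 4, where equal numbers give 50%. All 8 libraries lay below 50%, and their mean deviation from it was -6.16 ± 1.65 percentage points (SD, n = 8, two-sided exact sign-flip permutation p = 0.00781, adjusted p = 0.0182 over 7 measures). The start windows of chromosomes 6, 9, 10, 13 and 17 held 0 peaks in all 8 libraries. The 8 deviations share these empty windows and are not independent, though the test takes them as such. No end window could be empty in all 8 libraries, because each was counted from the last listed peak. On these chromosomes the first listed peak began at 505340, 539083, 501329, 524728 and 511676. On the other 22 chromosomes it began at or before 101225, and there the start windows held 804 peaks and the end windows 866. The rule counts the far window from the last listed peak but the near window from position 0. With both counted from a listed peak, an alternative added after the data had been seen, the mean deviation was -1.71 percentage points (exact permutation p = 0.0469, adjusted p = 0.109), which no longer passed the threshold. With the highest of the 8 score minima applied to all lists it turned to 4.29 (exact permutation p = 0.258, adjusted p = 0.361). The score has no stated scale, and that cut left lists of very unequal length. Whether the empty windows are gaps in the assembly was not tested.

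Wide peaks were more frequent in start than in end windows, in large part through 1 window. In the 7 libraries other than high temperature 1, 92 of 660 peaks in start windows and 40 of 833 in end windows were wider than 500 bp. By library that was 11.8% to 17.9% in start windows and 0% to 7.96% in end windows, so the ranges did not overlap. In high temperature 1 it was 50.0% and 30.3%. Of the 92 wide peaks in start windows, 41 lay in that of chromosome 14, which held 54 peaks in the 7 libraries. The shares without that window were not computed. This contrast between the ends was described after the data had been seen and was not tested.

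No difference in the density of terminal peaks between large and small chromosomes was detected. On chromosomes 1 to 10 there were 8.70, 8.80, 8.40 and 8.70 terminal peaks per Mb at normal temperature 1 to 4 and 10.5, 6.30, 5.70 and 8.20 at high temperature 1 to 4. On chromosomes 11 to 15 and 17 to 28 there were 7.65, 6.59, 9.47 and 9.41 at normal and 13.9, 7.88, 7.18 and 7.41 at high temperature. The log2 ratio of small to large averaged 0.08 ± 0.30 (SD, n = 8) and was above 0 in 5 of 8 libraries (two-sided exact sign-flip permutation p = 0.484, adjusted p = 0.775 over 7 measures). With observed over expected in place of density it averaged 0.04 ± 0.24 (exact permutation p = 0.664, adjusted p = 0.775). The sign of both means turned under several alternatives, so these data give no direction. The wide peaks were less even, with 112 of 945 terminal peaks on the smaller chromosomes and 20 of 548 on chromosomes 1 to 10 in the 7 libraries. By library that was 7.14% to 14.9% on the smaller and 2.27% to 6.35% on the larger chromosomes, again described after the data had been seen and not tested. The start window of chromosome 14 held 41 of the 112, and the shares without it were not computed.

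The windows differed widely in how many peaks they held. The start window of chromosome 14 ranked first, with 7, 7, 7 and 9 peaks at normal temperature 1 to 4 and 19, 6, 9 and 9 at high temperature 1 to 4. Next by mean share came the end window of chromosome 18, with 4, 6, 3 and 6 peaks at normal and 26, 5, 7 and 7 at high temperature. In both windows high temperature 1 was far above the other libraries. Without it the chromosome 14 window still ranked first, with 54 peaks, and the chromosome 18 window fell from rank 2 to rank 9, with 38. The end windows of chromosomes 26, 1 and 4 followed, with 3 to 12, 1 to 10 and 2 to 11 peaks per library, and ranked 4, 6 and 7 without high temperature 1. The 5 lowest windows were the empty ones, and the start window of chromosome 12 held at most 1 peak per library. The median window held 37 peaks over the 8 libraries.

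**Figure D3:**
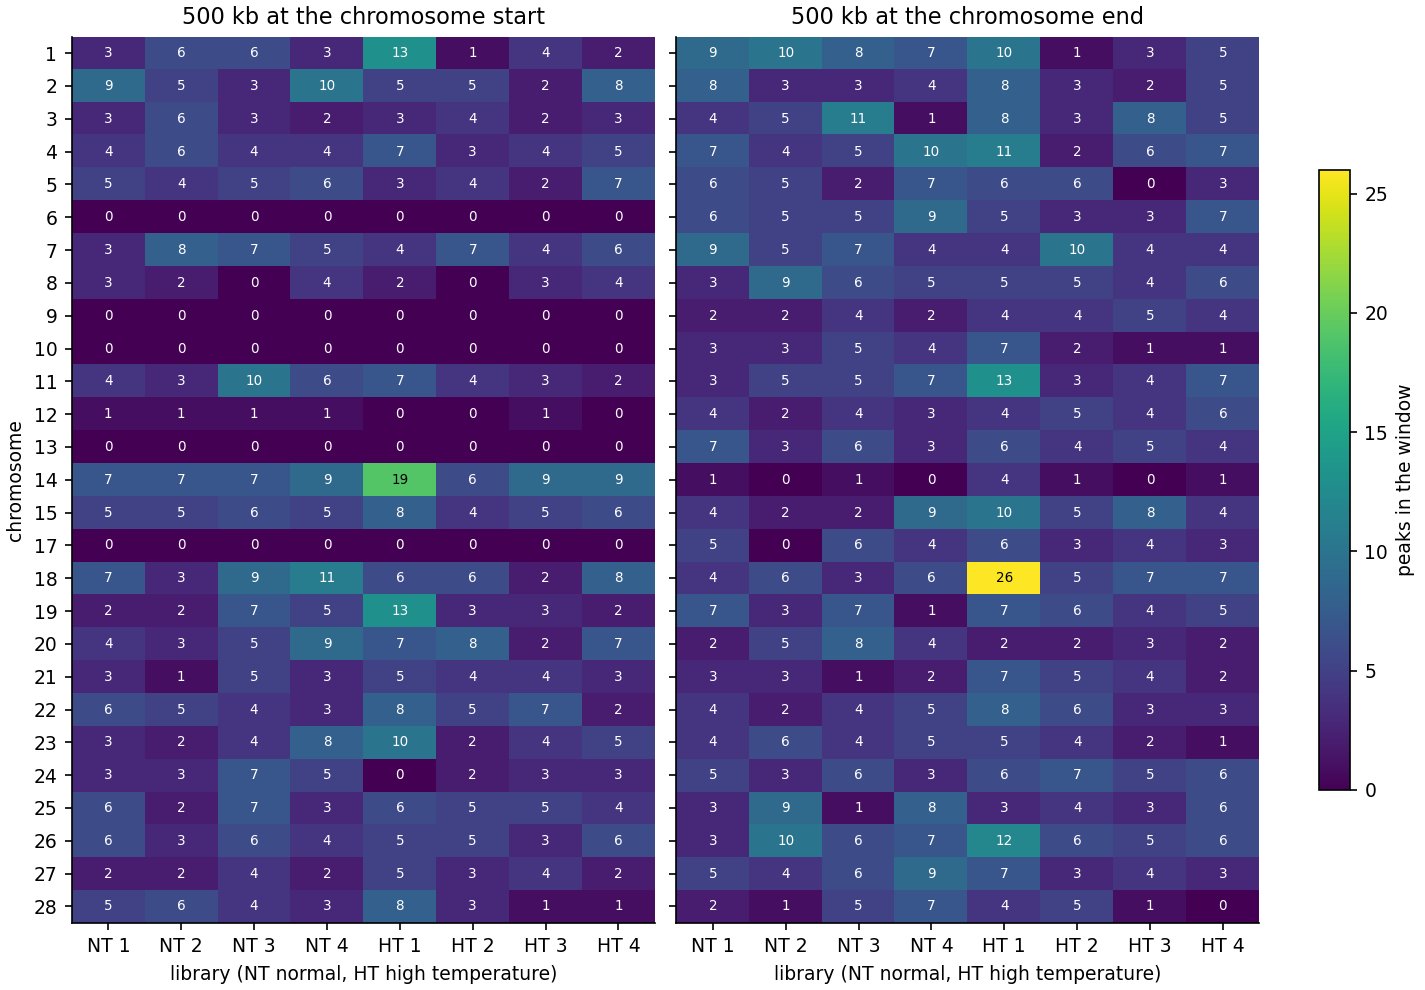
Number of peaks in each of the 54 terminal windows (27 chromosomes, start window on the left and end window on the right) in each library; colour and printed number give the count. Start windows of chromosomes 6, 9, 10, 13 and 17 were empty in all 8 libraries, and the highest count was 26, at the end of chromosome 18 in high temperature 1.

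Terminal peaks recurred across libraries more often than interior ones. A terminal peak overlapped, by at least 1 bp, a peak of another library in 12.4%, 11%, 13.5% and 13.4% of cases at normal temperature 1 to 4. At high temperature 1 to 4 it did so in 30.7%, 18.8%, 33.0% and 16.8%. Interior peaks did so in 3.63%, 4.04%, 3.25% and 3.49% at normal and in 25.0%, 3.48%, 21.0% and 4.01% at high temperature. The terminal share was higher in each of the 8 libraries, by 10.2 ± 3.13 percentage points (SD, n = 8, two-sided exact sign-flip permutation p = 0.00781, adjusted p = 0.0182 over 7 measures). A shared peak counts in every library that holds it, so the 8 values are not independent, though the test takes them as such. The same limit applies to every p-value on overlap between libraries given below. Without the overlap of high temperature 1 with 3 the difference was 11.2 percentage points. Without high temperature 1 it was 8.69, and without high temperature 3 it was 11.1. With high temperature 1 and 3 both left out, the excess of overlapping peaks was 8.28 points and that of wide peaks 7.97, each with an exact permutation p of 0.0312, the smallest that 6 libraries allow, and an adjusted p of 0.0729. Peak density also differed between ends and interior, and its part in the result was not tested. The terminal windows held more peaks per Mb than the interior in normal temperature 1 (8.04 and 7.88), high temperature 4 (7.7 and 7.49) and high temperature 1 (12.7 and 6.95), and fewer in the other 5 libraries.

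Recurrence went with width. In the 7 libraries, 87.5% to 100% of terminal peaks over 500 bp overlapped a peak of another library, and 26.4% to 87.9% of interior peaks over 500 bp did. In high temperature 1 it was 40.2% and 18.3%. Among peaks up to 250 bp the shares at the ends were 3.66%, 5.91%, 5.88% and 3.77% at normal temperature 1 to 4 and 24.4%, 8.64%, 22.9% and 6.29% at high temperature 1 to 4. In the interior they were 3.18%, 3.84%, 3.04% and 3.19% at normal and 34.2%, 3.09%, 19.4% and 3.54% at high temperature. Terminal exceeded interior in 7 of 8 libraries, high temperature 1 being the exception. When peaks up to 250 bp alone were kept in all lists, the mean difference was -0.90 percentage points (exact permutation p = 0.812). With high temperature 1 left out, an alternative added after the data had been seen, it was 0.834 (exact permutation p = 0.203, adjusted p = 0.394), so its sign rests on that library and it did not pass either way.

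**Figure D4:**
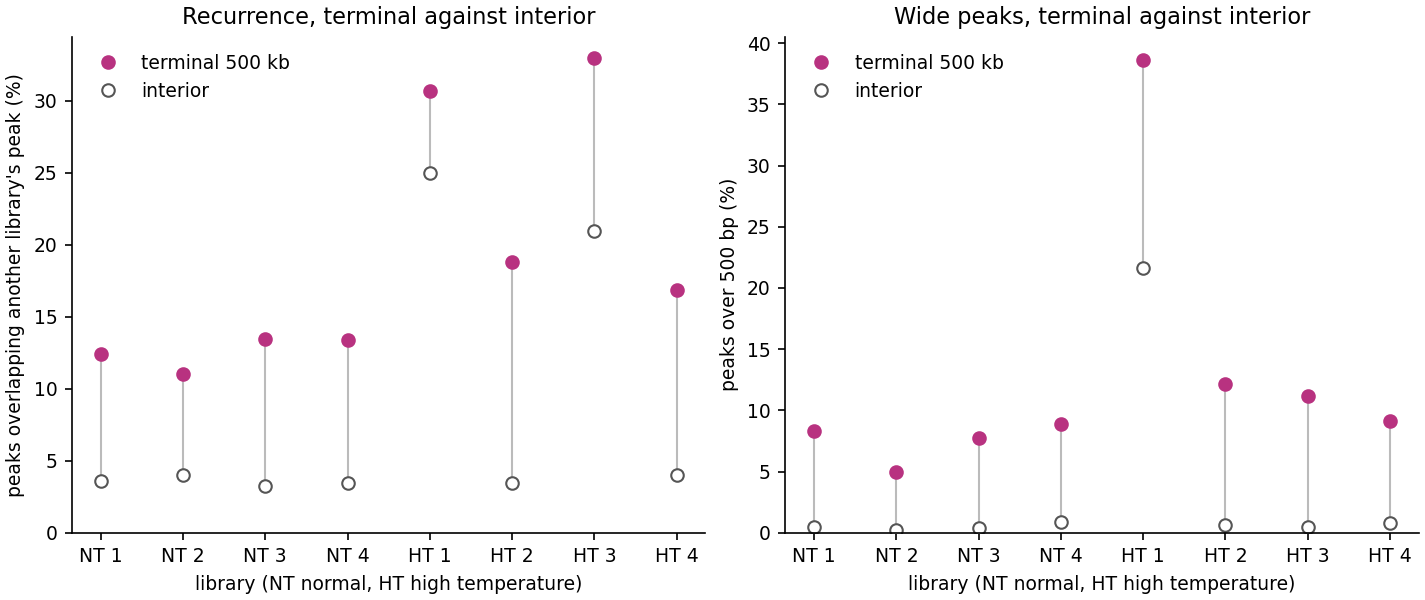
Left, the percentage of peaks that overlap a peak of at least 1 other library, and right, the percentage wider than 500 bp, for terminal (filled) and interior (open) peaks of each library. Terminal values lay above interior ones in all 8 libraries in both panels, and the interior recurrence of high temperature 1 and 3, at 25.0% and 21.0%, includes the peaks they share.

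Merged over the 8 libraries, the terminal peaks formed 1605 regions. Of these, 1484 (92.5%) were held by 1 library, 121 (7.54%) by at least 2, 21 (1.31%) by at least 4 and 8 (0.498%) by all 8. In the interior, 58166 regions were formed, of which 2318 (3.99%) were held by at least 2 libraries, 19 (0.0327%) by at least 4 and 5 by all 8. Over all 66027 regions of the series, 63 were held by at least 4 and 14 by all 8, so further ones lay on other chromosomes or scaffolds. Regions are not replicates, so these shares are given without a test. Of the 21 terminal regions held by at least 4 libraries, 14 lay in start windows and 18 on the smaller chromosomes. All 8 regions held by every library did both. The 100 wide terminal peaks in regions held by at least 4 were 75.8% of those of the 7 libraries, and 9 lay in regions of 1 library alone. In high temperature 1 the share was 18.2%, with 79 of 132 in regions of that library alone, and over all 8 libraries it was 47.0%. Pairs of libraries other than high temperature 1 with 3 shared 10 to 28 terminal regions, with a median of 15 over 27 pairs.

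Chromosome 14 carried 5 of the 8 regions held by all libraries. The outermost lay at chr14:129956-131779 (1824 bp) and held the highest-scoring terminal peak in 6 libraries. Its peak covered 1186, 1076, 1267 and 1202 bp at normal temperature 1 to 4 and 1264, 1276, 1816 and 1219 bp at high temperature 1 to 4. High temperature 3 was the widest, and the other values of both groups overlapped. The region at chr14:172566-173236 (671 bp) was covered over 553 to 671 bp in all libraries, and its best peak stood at or above the 97.0th percentile of the authors' score in each list.

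Further inward lay a close pair, at chr14:348582-350933 (2352 bp) and chr14:357809-359286 (1478 bp). Their rank varied most among the regions held by all, since the best peak of the former stood at the 6.6th percentile in high temperature 2, the 7.98th in normal temperature 2 and the 97.9th in normal temperature 1. The widest of the 5, at chr14:409234-413259 (4026 bp), was covered over 2922, 1638, 3774 and 3989 bp at normal temperature 1 to 4 and 3197, 3308, 2927 and 3123 bp at high temperature 1 to 4. Normal temperature 2 was the lowest, and the high temperature values lay within the normal range. In this window, 41 of the wide terminal peaks of the 7 libraries other than high temperature 1 were found, 31.1% of them. Over all 8 libraries, terminal peaks without chromosome 14 were still wider than 500 bp more often than interior ones. The difference was 6.90 percentage points (exact permutation p = 0.00781, adjusted p = 0.0182). It was not computed without both chromosome 14 and high temperature 1.

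**Figure D5:**
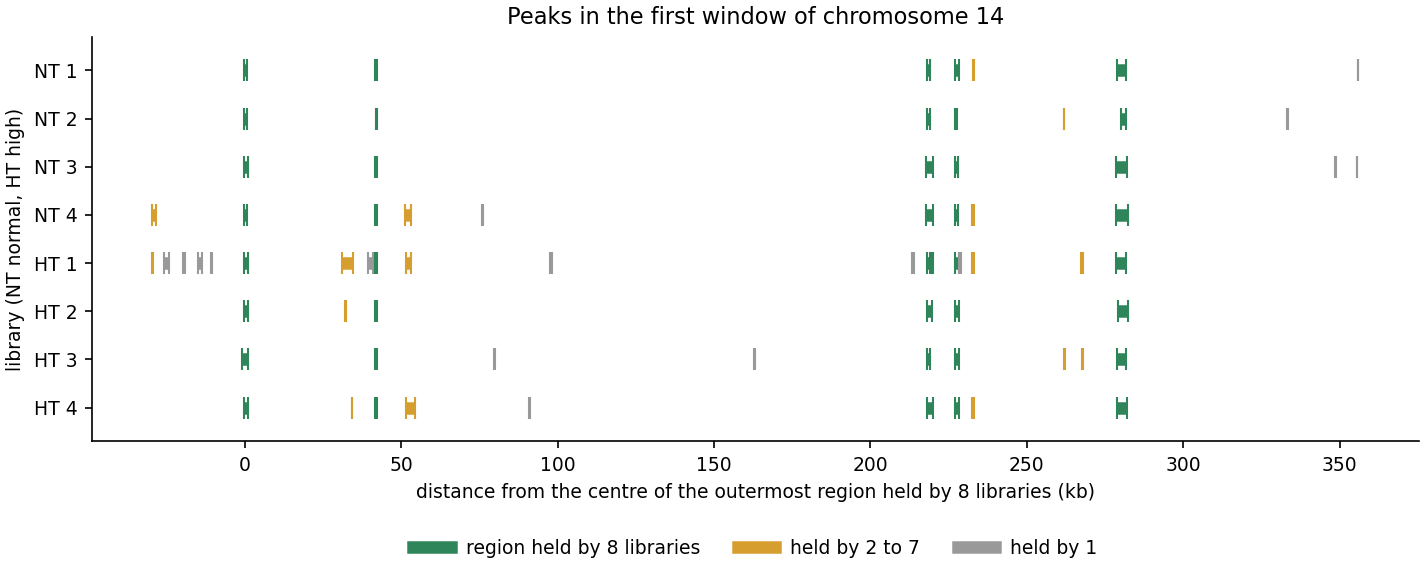
Peaks of each library in the first window of chromosome 14, by distance in kb from the centre of the outermost region held by all 8 libraries; bars span the peaks, with ticks at their ends, and colour gives how many libraries held the region. The 5 regions held by all 8 libraries line up across both temperatures, and high temperature 1 held 19 peaks against 6 to 9 in the others.

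The other 3 regions held by every library lay on chromosomes 27, 22 and 15. The region at chr27:293553-297842 (4290 bp) was covered over nearly its whole length in each library, with 4272, 4237, 4267 and 4249 bp at normal temperature 1 to 4 and 4279, 4267, 4213 and 4201 bp at high temperature 1 to 4. Its coverage varied the least of the regions held by all. The region at chr22:112320-117999 (5680 bp) was covered over 5243, 2404, 5672 and 4190 bp at normal and 4220, 5358, 4172 and 5465 bp at high temperature, and normal temperature 2 was again the lowest. The region at chr15:269148-271542 (2395 bp) was covered over 1110, 1177, 1110 and 637 bp at normal and 2087, 729, 1041 and 1699 bp at high temperature. The groups overlapped in each of these regions.

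A further 6 terminal regions were held by 6 or 7 libraries. The outermost of them, at chr11:3702-5970 (2269 bp), was held by 7 and was not listed in high temperature 4, and it was covered over 218 to 2269 bp where listed. The regions at chr4:17964-20546 (2583 bp) and chr7:19839-22748 (2910 bp) also lay near a chromosome start, on larger chromosomes. The former was absent in high temperature 3 and 4, and the latter in high temperature 3 and normal temperature 2. The region at chr25:491675-492538 (864 bp) was absent in normal temperature 2 and 4. The last of them lay near the far end of chromosome 18. The region at chr18:10984939-10985929 (991 bp) was absent in normal temperature 2 and 3, and that at chr18:11047654-11049640 (1987 bp) in normal temperature 1 and high temperature 2.

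The scores that the authors gave their peaks were compared as ranks within a list, except for the alternative with a common score minimum. The highest-scoring terminal peak ranked first in its list in normal temperature 4 and high temperature 1, 2 and 3, second in normal temperature 1, and at rank 3, 4 and 9 in normal temperature 3, high temperature 4 and normal temperature 2. It lay in the outermost region of chromosome 14 in 6 libraries, in the region of chromosome 27 in normal temperature 3, and in a 200 bp peak at chr7:36481639-36481838 of normal temperature 2 that no other library held. Of the 100 highest-scoring peaks of a whole list, other chromosomes and scaffolds included, 4 to 14 were terminal. Among all autosomal peaks 2.41% to 5.11% were, and in each library the number out of 100 was above that library's share. The lowest number was in normal temperature 2, with a share of 2.49%, and the highest in high temperature 1, with 5.11%. Regions recurred among these peaks, so the libraries are not independent here, and no test was made. The region of chromosome 27 and the outermost of chromosome 14 were each among the 100 in 7 libraries. The mean percentile of terminal peaks was nevertheless close to that of interior ones. It differed by 0.721 ± 4.39 percentile points (SD, n = 8, two-sided exact sign-flip permutation p = 0.664, adjusted p = 0.775), and it was lower at the ends in high temperature 1 and 4 and higher in the other 6.

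Normal and high temperature were compared on 8 measures of the chromosome ends. Terminal share was 2.65% ± 0.203 in the normal and 3.33% ± 1.21 in the high temperature libraries (SD, n = 4 each, two-sided exact permutation p = 0.343, adjusted p = 0.549 over 8 measures). The difference of 0.679 percentage points was 0.0855 without high temperature 1. The numbers of terminal peaks were 227.2 ± 22.8 and 231.5 ± 74.6 (exact permutation p = 0.971, adjusted p = 0.971). The difference in number turned from 4.25 to -32.6 without high temperature 1 (exact permutation p = 0.114, adjusted p = 0.305). The log2 of observed over expected was -0.09 ± 0.05 and 0.10 ± 0.43 (exact permutation p = 0.571, adjusted p = 0.653). The start share of terminal peaks was 44.3% ± 1.79 and 43.4% ± 1.59 (exact permutation p = 0.457, adjusted p = 0.610). For these measures the groups overlapped.

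In the remaining measures the groups were further apart. Each high temperature library had a higher share of terminal peaks over 500 bp than each normal one, 17.8% ± 13.9 against 7.49% ± 1.72 (SD, n = 4 each, two-sided exact permutation p = 0.0286, the smallest that 4 against 4 allow, and adjusted p = 0.114 over 8 measures). In number the groups overlapped, with 18, 10, 19 and 22 at normal and 132, 24, 20 and 19 at high temperature 1 to 4. Terminal peaks up to 250 bp were fewer in each high temperature library (78, 162, 153 and 175) than in each normal one (191, 186, 221 and 212). This was not particular to the ends. Interior peaks up to 250 bp numbered 2497, 6437, 6990 and 6501 at high and 7047, 7740, 8627 and 9038 at normal temperature 1 to 4. Whole lists were also shorter in each high temperature library (7550 to 8253 peaks) than in each normal one (8262 to 10599). The difference in the share of wide peaks fell from 10.3 to 3.34 percentage points without high temperature 1 (exact permutation p = 0.0286, adjusted p = 0.114). Each high temperature library also had a higher share of terminal peaks overlapping another library, 24.8% ± 8.19 against 12.6% ± 1.14 (exact permutation p = 0.0286, adjusted p = 0.114). Without the overlap of high temperature 1 with 3 the shares were 20.2%, 18.8%, 13.4% and 16.8% at high temperature 1 to 4, the difference was 4.73 percentage points, and the groups overlapped (exact permutation p = 0.0571, adjusted p = 0.229). Without high temperature 1 the difference was 4.04 percentage points (exact permutation p = 0.0286, adjusted p = 0.114). Neither measure passed the threshold of 0.05 after adjustment, nor did the mean percentile of terminal peaks (53.1 ± 2.55 against 48.5 ± 4.15, exact permutation p = 0.114, adjusted p = 0.305) or the log2 ratio of small to large chromosomes (-0.08 ± 0.27 against 0.23 ± 0.25, exact permutation p = 0.171, adjusted p = 0.343). With only 2 measures at the smallest p, adjustment over 8 measures could not bring either below 0.05.

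Of the 54 windows, 0 (0%) passed 0.05 between temperatures after adjustment of the exact permutation p, and 1 passed it before. That was the end window of chromosome 9, with 2, 2, 4 and 2 peaks at normal and 4, 4, 5 and 4 at high temperature (exact permutation p = 0.0286, adjusted p = 0.617). Since 0.0286 is the smallest p that 4 against 4 allow, a window could pass after adjustment only if many windows reached that p together. The adjusted result therefore cannot decide whether single windows differ. The largest difference in share was at the end of chromosome 18, with 0.0556% ± 0.0175 of autosomal peaks against 0.164% ± 0.150 in the warmer group (SD, n = 4 each, exact permutation p = 0.0571, adjusted p = 0.617), where high temperature 1 held 26 peaks. Without that library the difference fell from 0.108 to 0.0330 percentage points (exact permutation p = 0.0857, adjusted p = 0.701). With all libraries, the next differences were at the start of chromosome 14 and the ends of chromosomes 15, 11 and 21, each higher on average at high temperature, with adjusted exact permutation p from 0.617 to 0.882. In that order they were 0.0675, 0.0485, 0.0406 and 0.0375 percentage points, and 0.0245, 0.0309, 0.0084 and 0.0243 when high temperature 1 was left out.

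A region was counted as held at one temperature only when 3 or 4 libraries at one temperature listed it and 0 at the other did. By this rule, 3 of the 1605 terminal regions (0.187%) were held at high temperature only and 0 at normal temperature only. Over all 66027 regions of the series the rule was met by 22 (0.0333%) at high and by 2 (0.00303%) at normal temperature. By Fisher's exact test, 0 of the 66027 regions (0%) passed 0.05 after adjustment. Before adjustment 0 passed it either, and the lowest p was 0.143, where a region listed in all 4 libraries of one temperature and 0 of the other would give 0.0286. With 63283 of the 66027 regions held by 1 library and 0.0286 as the lowest possible p, no region could pass after adjustment. The adjusted result was fixed in advance and says nothing about temperature.

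The 3 high temperature regions were all listed in high temperature 1 and 4. The one at chr14:161876-165595 (3720 bp) lay between the first regions that all libraries held on that chromosome, and it was covered over 3720, 530 and 290 bp in high temperature 1, 2 and 4. The one at chr26:5532011-5533140 (1130 bp) reached the last listed base of chromosome 26 and was covered over 610, 922 and 200 bp in high temperature 1, 3 and 4. The one at chr11:19987110-19987736 (627 bp) was covered over 621, 531 and 497 bp in the same libraries. Without high temperature 1 or without high temperature 4, 0 terminal regions met the rule in the remaining 3 libraries, and without high temperature 3 the number was 1. Without normal temperature 4 it rose to 5.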

How the data were processed

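Each library had 1 peak list with 5 fields: chromosome, start, end, a MACS-style name and a number per peak. That number is the authors' score, deposited with no stated scale. It served to rank peaks within a list and, in an alternative, as a common minimum of 120.01 for all lists. That cut left lists of very unequal length. It kept all 7647 peaks of high temperature 2, fewer than 713 of 7550 in high temperature 1, and fewer than 354 of 8968 in normal temperature 2. The tools named are Bowtie2 2.2.4 and cutadapt 1.9.2, and the build galGal6, per the submitters' processing notes. The peak caller's settings and version, a control and duplicate handling are not given in the sources used here, and read depth is unknown. Start and end, the other deposited values, were read as counted from 0.

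Peaks overlapping by at least 1 bp were merged into 66027 regions, the number that bedtools 2.31.1 also gave. Terminal and interior were compared within libraries by two-sided exact sign-flip permutation over 256 assignments (smallest p 0.00781), adjusted by Benjamini-Hochberg over 7 measures. Temperatures were compared by two-sided exact permutation over 70 assignments (smallest p 0.0286), adjusted over 8 measures, or over 54 windows. Fisher's exact test was run per region. Regions were named if held by at least 6 libraries or at one temperature only, windows if among the 5 highest, the 5 lowest or the 5 most different. The end window of chromosome 9 and the start window of chromosome 12 were named after their values were seen. Members, measures and lists were chosen with earlier results of these data known. Code was tested on simulated data. Computation used scipy 1.17.1, pandas 2.3.3 and numpy 2.4.6 under Python 3.11.15, with figures from matplotlib 3.10.9. Planned gene and sequence comparisons were not made, as no galGal6 genome or annotation was used here. Alternatives are given in the closing section.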

Additional observations from a re-analysis of the deposited data

Results flagged for a closer look

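Of 16 sets of 4 libraries examined, 2 held a library far from the other 3 of its group, and about 1 in 20 would be so by chance. Peaks over 500 bp made up 38.6% of the terminal peaks of high temperature 1, against 9.13% to 12.2% in the other high temperature libraries. High temperature 4 had a log2 ratio of terminal peaks per Mb on small over large chromosomes of -0.15, against 0.32 to 0.41 in the other high temperature libraries.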

How the results depend on the processing

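The excess of wide peaks at the ends kept its direction under every alternative run, from 3.29 percentage points without regions held by at least 4 libraries to 21.8 with a common score minimum of 120.01. The excess of overlapping peaks was 3.70 points without those regions and -0.90 with peaks up to 250 bp wide, -0.56 with windows also counted from the first peak, and 0.834 with narrow peaks and without high temperature 1. Without high temperature 1 and 3 both excesses missed the threshold, at 7.97 and 8.28 points, with exact permutation p = 0.0312, the smallest 6 libraries allow.

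The start window deficit was -4.76 points with the upper 50% of peaks, -1.71 from the first peak, -5.73 without high temperature 1 and 3, and 4.29 with a common score minimum. Observed over expected (log2) was -0.062 with 250 kb windows, -0.20 with narrow peaks, -0.090 with narrow peaks from the first peak, -0.0010 without chromosome 14, -0.096 without regions held by at least 4 libraries, -0.0023 with union regions, -0.066 without high temperature 1 and 3, and -0.098 to 0.046 leaving out 1 library. The same log2 was 0.11 with windows from the first peak, 0.14 with a common score minimum and 0.033 with 1 Mb windows. It was 0.028 without identical peaks and 0.0017 with the upper 50% of peaks. The temperature difference in observed over expected was -0.0025 with narrow peaks and -0.010 to 0.33 leaving out 1 library.

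The small to large ratio (log2) was -0.045 with 1 Mb windows, -0.10 with narrow peaks, -0.043 without regions held by at least 4 libraries and -0.023 without high temperature 1 and 3. By observed over expected it was -0.084, -0.10, -0.065 and -0.020 in the same order, -0.0097 with the upper 50% and -0.024 from the first peak. The score rank difference was 1.96 with a common score minimum (adjusted p = 0.0182 by exact permutation), -0.28 with narrow peaks, -0.13 without chromosome 14 and -1.38 without regions held by at least 4 libraries.

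Between temperatures, the number of peaks differed by -18.5 with 1 Mb windows, -28.0 with the upper 50%, -2.75 without identical peaks, -35.2 with a common score minimum, -60.5 with narrow peaks, -24.8 without high temperature 1 and 3, and -32.6 to 21.8 leaving out 1 library. The start share differed by 0.968 with 250 kb windows, 0.0755 with 1 Mb windows and 2.30 with a common score minimum, and the score percentile by 3.46 with the upper 50%, 4.08 with that minimum and 3.27 with narrow peaks. Regions at high temperature only numbered 1 with the upper 50%, 0 with that minimum, 0 with narrow peaks, 0 with 4 of 4 libraries, and 0 to 5 leaving out 1 library. The causes were not tested.

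With the replicate number as a block, the differences in recurrence and in wide terminal peaks between temperatures, 12.2 and 10.3 points, had an exact permutation p of 0.125. That is the smallest the block allows, so it could not pass the threshold and says nothing about stability. Deviations of same-numbered libraries over the 54 windows correlated at -0.10, -0.11, 0.34 and 0.17 for numbers 1 to 4, so the numbers were not taken as pairs. Wide peaks cannot be counted among narrow ones, and region counts were not repeated on union regions or without high temperature 1 and 3. Windows from the first peak, narrow peaks without high temperature 1, omission of the overlap of high temperature 1 with 3, and omission of both libraries were chosen after seeing the data.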
